A study of Mus musculus with 16 samples.

Results

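Transcripts of 42 complement and coagulation genes were followed in 16 mouse liver RNA-seq libraries. The 42 genes, 19 of complement and 23 of coagulation, were taken by gene symbol from a list of factors that the liver secretes, and all 42 were found among the 55401 genes of the table. The libraries came from 4 groups of 4 mice, which crossed a vector with a treatment. By the sample titles the vector was a negative control or an AKR1B10 knockdown, and the mice of each kind were left without treatment or given BBR. This is taken to mean berberine, an alkaloid of plants, which the series title names. The 4 groups are called controls, berberine controls, knockdown-labelled libraries and berberine knockdown-labelled libraries. Sample descriptions of all 16 carry the prefix AAV, which is not spelled out. Strain, sex, age, diet, dose, duration, the promoter of the vector and its target sequence are not given in the sources used here. Titles number the mice of a group 1 to 4, and nothing further says that they were housed or treated separately, so p-values measure the spread between these libraries.

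The transcript of the labelled target, Akr1b10, averaged 0.397 FPKM (SD 0.151, n = 4) in the controls and 0.528 FPKM (SD 0.230, n = 4) in the knockdown-labelled libraries, where FPKM is the number of fragments scaled by transcript length and by library total. With berberine its averages were 0.359 FPKM (SD 0.169, n = 4) and 0.451 FPKM (SD 0.058, n = 4). The transcript was thus not lower on average in the libraries with the knockdown label. All its values, from 0.177 to 0.859 FPKM, lay below the 1 FPKM asked of a tested gene. It was therefore not tested, and a loss would be hard to see at this level. Every direction is given for the label and not for a loss of AKR1B10.

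Complement is a cascade of plasma proteases and binding proteins. Mannose-binding lectins or the C1 complex recognise a surface, C2, C4 and factor B build the convertases that cleave C3, and C5 to C9 assemble a pore in the membrane. Coagulation is another cascade, in which vitamin K-dependent zymogens activate each other until thrombin cuts fibrinogen into fibrin, while antithrombin, protein C and plasmin hold the clot in check. Hepatocytes make most of these proteins. In mice, cytokines of inflammation, interleukin-6 foremost, raise several of them together with other acute phase proteins such as serum amyloid A and orosomucoid.

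The members were abundant, with mean levels over the 16 libraries from 7.80 FPKM for Masp1 to 1157 FPKM for Vtn, which had rank 62 of the 10846 genes tested. A gene was tested if 4 or more of the libraries had it at 1 FPKM or above, and all 42 members met this. Total counts lay between 46273129 and 66235443 per library. The members took 2.57% to 5.35% of the counts in 15 libraries and 1.32% in knockdown-labelled library 4. The smallest count behind any member's value was 1592, and no member had a count of 0 anywhere. Hepatocyte markers were present in every library, with none of 10 at 0, and their summed level was 22547 FPKM in knockdown-labelled library 4 and 35125 to 44087 FPKM elsewhere. In bulk RNA, fewer cells of a type and less RNA per cell cannot be told apart.

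Some libraries stood apart from their groups. Berberine control library 2 and knockdown-labelled library 3 had summed levels of 20917 and 27022 FPKM over 11 inducible acute phase genes (serum amyloid A, orosomucoids, lipocalin 2 and others), against 2638 to 7697 FPKM in the other 14. In knockdown-labelled library 4, mitochondrially encoded genes took 35.4% of the counts, against 10.98% to 15.9% in the others. Of the 42 members, 16 were highest of all libraries in berberine control library 2, where 7.51% of all tested genes were highest. Another 13 members were highest in knockdown-labelled library 3, where 10.2% of all tested genes were. The lowest value fell in knockdown-labelled library 4 for 26 of the 42 members, and for 25% of all tested genes. Levels per library are therefore given as CPM, counts relative to the library total after TMM scaling, which sets the libraries by their typical gene, and levels between genes as FPKM.

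**Figure D1:**
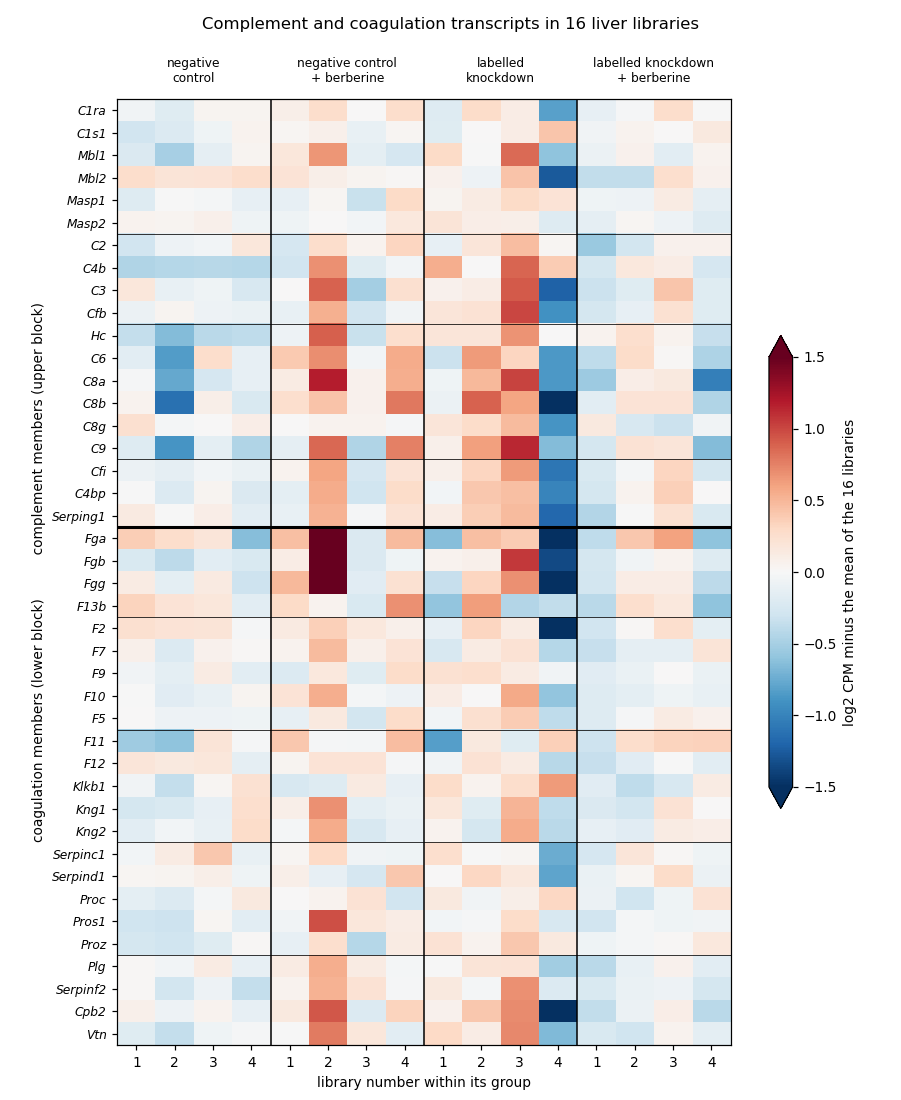
Each row is a member and each column a library, coloured by log2 CPM minus the mean of the 16 libraries, with the complement members above the thick line and the coagulation members below it, thin lines between roles, and values beyond 1.5 drawn in the end colours. Berberine control library 2 and knockdown-labelled library 3 are red for most members, and knockdown-labelled library 4 is blue for 33 of 42 members, the other 9 being C1s1, C2, C4b, F11, Hc, Klkb1, Masp1, Proc and Proz.

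The comparison of the knockdown label with the negative control, both without berberine, asks what the labelled vector does to the liver alone. Fitted folds were above 1 for 17 of the 19 complement members and 14 of the 23 coagulation members, where 51.9% of all genes tested were above and 48.1% below 1. The median log2 fold change was 0.22 for complement and 0.13 for coagulation, and 0.02 over all genes. On the scale log2(FPKM + 1) the split was 11 higher and 8 lower for complement and turned to 10 higher and 13 lower for coagulation, with medians of 0.07 and -0.03 beside -0.08 for all genes. No member passed the test: in the quasi-likelihood test of edgeR, adjusted by Benjamini-Hochberg for 10846 genes, 0 genes (0%) had an adjusted p under 0.05. DESeq2 called 105 genes, C4b among them, and limma called 0. An unadjusted p under 0.05 was reached by 3 complement members and 1 coagulation member, all higher, where 14.8% of all genes reached it, 8.33% as higher and 6.45% as lower. The 4 libraries of each group did not overlap for C4b, Hc, Masp1 and Proz, each higher with the label, where 4.88% of all genes did not overlap, 2.36% being higher and 2.52% lower. Without knockdown-labelled library 3 the medians were 0.08 and -0.06, with 11 of 19 and 9 of 23 members above 1. Without library 4 they were 0.44 and 0.23, with 18 and 19 members above 1.

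Berberine in the negative controls asks what the treatment does without the knockdown vector. The fitted fold was above 1 for 16 of 19 complement and 21 of 23 coagulation members, against 49.7% of all genes above and 50.3% below 1, with medians of 0.23 and 0.21 where all genes had a median of -0.0017. None was called by edgeR (0 genes, 0%) or limma, and DESeq2 called 3 genes, none of them a member. At an unadjusted p under 0.05 stood 3 complement members and 1 coagulation member, all higher, where 3.68% of all genes stood, 1.74% as higher and 1.94% as lower. C4b, Hc and C8a were higher in all 4 berberine controls than in any control, and 3.55% of all genes had such a separation, 1.48% higher and 2.07% lower. Without berberine control library 2 the medians were 0.12 and 0.09, with 16 of 19 and 19 of 23 members above 1. In that fit 1 complement and 0 coagulation members had an unadjusted p under 0.05, where 2.41% of all genes did. Without knockdown-labelled library 4, which is in neither of these groups but enters the shared estimate of spread, 6 and 4 members had one, where 5.64% of all genes did.

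Berberine in the knockdown-labelled mice ran the other way on the TMM scale. The fitted fold was below 1 for 17 of 19 complement and 17 of 23 coagulation members, where 53.4% of all genes were below and 46.6% above 1, with medians of -0.20 and -0.12 beside -0.03 for all genes. On the scale log2(FPKM + 1) the split turned, to 11 of 19 and 17 of 23 members higher with medians of 0.03 and 0.07, but the median of all genes moved to 0.11 on that scale. C4b and Klkb1 had an unadjusted p under 0.05, both lower, where 9.48% of all genes had one, 4.27% as higher and 5.21% as lower. No gene was called by edgeR (0%) or limma and 55 were by DESeq2, none of them a member. No member separated the groups without overlap, as 3.91% of all genes did, 2.2% being higher and 1.71% lower. Without knockdown-labelled library 3 the medians were -0.06 and -0.00, with 11 of 19 and 12 of 23 members below 1. Without library 4 they were -0.39 and -0.21, with 18 and 22 members below 1, and 7 complement and 7 coagulation members had an unadjusted p under 0.05, where 11% of all genes did.

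The label was also compared under berberine, where both groups had the treatment. Fitted folds were below 1 for 18 of 19 complement and 22 of 23 coagulation members, with 51% of all genes below and 49% above 1, and the medians were -0.19 and -0.28 beside -0.01 for all genes. The count without berberine control library 2 was 12 and 19 members below 1, with medians of -0.09 and -0.15. Knockdown-labelled library 4 is in neither of these groups but enters the shared estimate of spread. Without it, 7 coagulation members in place of 1 had an unadjusted p under 0.05, where 7.33% of all genes did. Neither edgeR (0 genes, 0%) nor limma made a call, and DESeq2 called 5 genes, none a member. C8a and Pros1 had an unadjusted p under 0.05, where 4.57% of all genes had one, 2.38% as higher and 2.19% as lower. Serpinf2 was lower in all 4 berberine knockdown-labelled libraries than in any berberine control, where 4.59% of all genes did not overlap, 2.32% being higher and 2.27% lower.

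The interaction compares the response to berberine between the labelled mice and the controls. It was negative for 18 of 19 complement and 20 of 23 coagulation members, where 51.2% of all genes were negative and 48.8% positive, with medians of -0.46 and -0.34 beside -0.01. On the scale log2(FPKM + 1) it was negative for 14 and 14 members, with medians of -0.10 and -0.12 where that of all genes moved to 0.14. No gene was called by edgeR (0%) or limma, and DESeq2 called 10 genes, none a member. C4b, Hc, C8a, C9, Serpinf2 and Pros1 had an unadjusted p under 0.05, where 6.56% of all genes had one, 2.71% as positive and 3.84% as negative. Without berberine control library 2 and knockdown-labelled library 3 together, the medians were -0.13 and -0.10, and 1 member had an unadjusted p under 0.05, where 3.68% of all genes did. Without knockdown-labelled library 4 they were -0.68 and -0.38, all 42 members were negative, and 11 complement and 9 coagulation members had an unadjusted p under 0.05, where 7.86% of all genes did. The comparisons share groups, so their counts are not independent of each other. Nor are the members, which moved together by library. Of the 42, 37 lay above the mean of the rest of the group in knockdown-labelled library 3. In berberine control library 2, 36 lay above it, and in knockdown-labelled library 4, 37 lay below it. A count of members by direction is thus no count of separate observations.

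**Figure D2:**
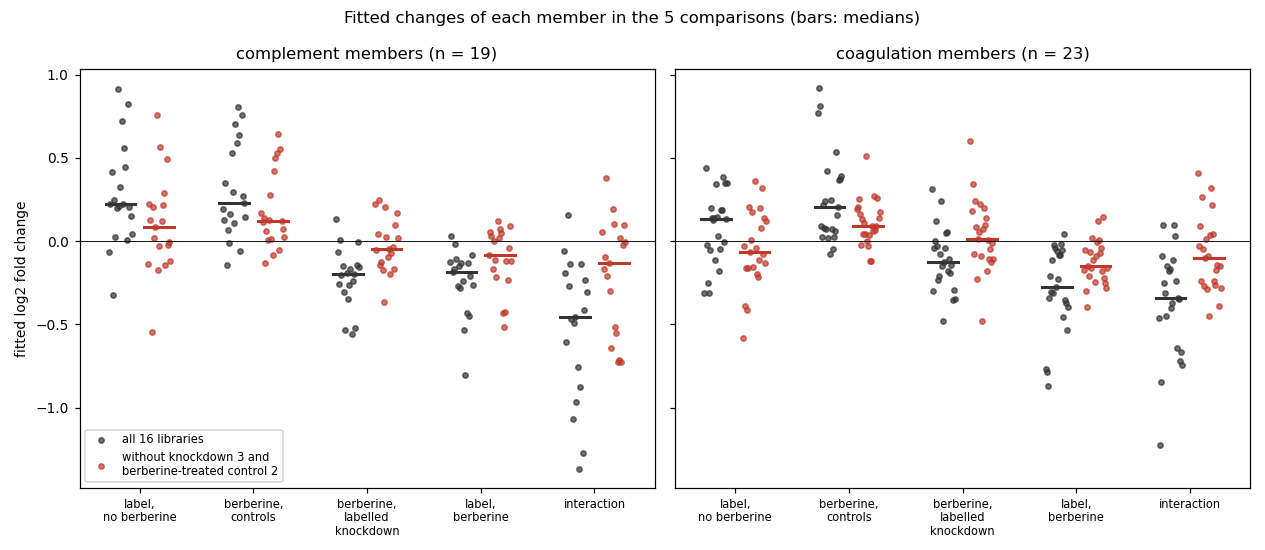
Points are the fitted log2 fold changes of the 19 complement members (left) and 23 coagulation members (right) in the 5 comparisons, grey with all 16 libraries and red without knockdown-labelled library 3 and berberine control library 2, and bars are medians. The grey medians of complement are 0.22, 0.23, -0.20, -0.19 and -0.46 from left to right, and the red ones are nearer to 0. On the log2(FPKM + 1) scale the coagulation median of the first comparison and both medians of the third turn sign. The medians of all genes also move on that scale, to -0.08 in the first comparison and 0.11 in the third.

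Taking complement by role, the 4 members of the convertases included the gene with the largest label difference. C4b, the mouse gene for C4, whose fragment anchors the classical and lectin C3 convertase (ENSMUSG00000073418, mm10 chr17:34728380-34743882, minus strand), held 752, 768, 772 and 764 CPM in the controls and 1509, 1031, 1892 and 1337 CPM in the knockdown-labelled libraries. The berberine controls held 846, 1663, 906 and 998 CPM and the berberine knockdown-labelled libraries 859, 1147, 1109.8 and 864 CPM. The controls were thus tight (SD of log2 CPM 0.02) and below every other library of the study. Its log2 fold change was 0.92 (SE 0.22) for the label, with an unadjusted p of 0.000901 and an adjusted p of 0.267 (quasi-likelihood test of edgeR, Benjamini-Hochberg). DESeq2 called it (0.92, adjusted p 0.0246 with Benjamini-Hochberg adjustment), and so did edgeR without knockdown-labelled library 2 (1.05, adjusted p 0.0269), while without library 3 the value was 0.76. The fit without library 2 called 609 of the 10846 genes, and 27.3% of all genes had an unadjusted p under 0.05 in it. For berberine, C4b had 0.53 (SE 0.22) in the controls and -0.54 (SE 0.22) in the labelled mice, and the interaction was -1.07 (SE 0.31). Of its 150-base windows, 7.48% also occur in C4a, its near-identical neighbour, so counts may be divided between the 2 genes.

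C3, the central component of all pathways and the most abundant complement transcript, had means of 532, 642, 594 and 555 FPKM in the controls, berberine controls, knockdown-labelled and berberine knockdown-labelled libraries. By library it held 3553, 2927, 3005 and 2664 CPM in the controls, 3166, 5803, 2220.0 and 3731 in the berberine controls, 3308, 3413, 5978 and 1355 in the knockdown-labelled and 2529.8, 2773, 4209 and 2783 in the berberine knockdown-labelled libraries. All groups overlapped, the highest values were those of the 2 libraries with high acute phase transcripts, and the label gave 0.21 (SE 0.36). C2, the protease of the C4b-containing convertase, was the least abundant of the 4, with 46.4, 53.4, 54.9 and 63.6 CPM in the controls, 47.6, 67.6, 58.6 and 70.7 in the berberine controls, 52.0, 63.9, 77.5 and 57.6 in the knockdown-labelled and 38.2, 46.6, 59.0 and 59.0 in the berberine knockdown-labelled libraries. Its groups overlapped as well, with -0.31 (SE 0.18) for berberine in the labelled mice and -0.27 (SE 0.18) for the label under berberine. Cfb, the factor B protease of the alternative pathway, ranged from 310 CPM in knockdown-labelled library 4 to 1169 CPM in library 3 of the same group. The readthrough gene Gm20547 covers 32.7% of the windows of C2 and 61.8% of those of Cfb, and was given a mean count of 0.25, so the readthrough took almost no counts.

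The 6 terminal members, which form the membrane attack complex, had median log2 fold changes of 0.50 for the label, 0.67 for berberine in the controls, -0.25 for berberine in the labelled mice, -0.44 for the label under berberine and -0.92 for the interaction. These lay further from 0 than those of the other complement roles, except for berberine in the labelled mice, where the convertases had -0.33. Hc, which encodes C5 (ENSMUSG00000026874, chr2:34983331-35061438, minus strand), held 433, 354, 419 and 426 CPM in the controls and 631, 628, 881 and 556 CPM in the knockdown-labelled libraries. With berberine the values were 525, 1029, 439.8 and 662 CPM in the controls and 575, 659, 576 and 436 CPM in the labelled mice. Every knockdown-labelled library and every berberine control lay above all 4 controls. The log2 fold changes were 0.72 (SE 0.23) for the label, 0.70 (SE 0.23) for berberine in the controls and -0.97 (SE 0.33) for the interaction, with unadjusted p of 0.00725, 0.0087 and 0.0102 in the quasi-likelihood test of edgeR. Without knockdown-labelled library 3 the label value of Hc was 0.57, and without berberine control library 2 its berberine value was 0.42.

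C9, the subunit that polymerises into the pore, held 140.1, 86.4, 144 and 117 CPM in the controls, 145, 291, 117 and 270.1 in the berberine controls, 168, 245, 350.2 and 102 in the knockdown-labelled and 134, 186, 182 and 102 in the berberine knockdown-labelled libraries. Its range over the 16 libraries was 4.05-fold, and knockdown-labelled library 4 lay within the controls while the other 3 of its group lay above them. The label gave 0.83 (SE 0.36) for C9, 0.49 without library 3 and 1.07 without library 4, and the interaction was -1.27 (SE 0.51). C8a, the alpha chain of C8, held 326, 193, 277 and 303 CPM in the controls, 358, 744, 343 and 480.1 in the berberine controls, 315, 459, 666 and 182 in the knockdown-labelled and 226, 351, 363 and 161 in the berberine knockdown-labelled libraries. The berberine controls were all above the controls (0.81 (SE 0.37); 0.53 without library 2), and under berberine the label gave -0.81 (SE 0.37) with overlapping groups. C6, which joins C5b as the complex forms, held 176, 110.2, 235 and 180.1 CPM in the controls, 257, 318, 191 and 289.6 in the berberine controls, 158, 305, 246 and 108 in the knockdown-labelled and 151, 238, 198 and 142 in the berberine knockdown-labelled libraries. Its groups overlapped, with -0.53 (SE 0.30) for the label under berberine. C8g, the lipocalin chain of C8 and the most abundant terminal transcript at 178 FPKM, was the steadiest of the 6, with 343, 285, 291 and 310.2 CPM in the controls, 290.1, 302, 302 and 288 in the berberine controls, 328, 350.2, 402 and 157 in the knockdown-labelled and 322, 246, 232 and 279.7 in the berberine knockdown-labelled libraries. Its fitted values lay between -0.20 and 0.01 in the 4 pairwise comparisons. C8b, the beta chain, ranged 5.25-fold, from 49.4 CPM in knockdown-labelled library 4 to 259 CPM in library 2 of that group.

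**Figure D3:**
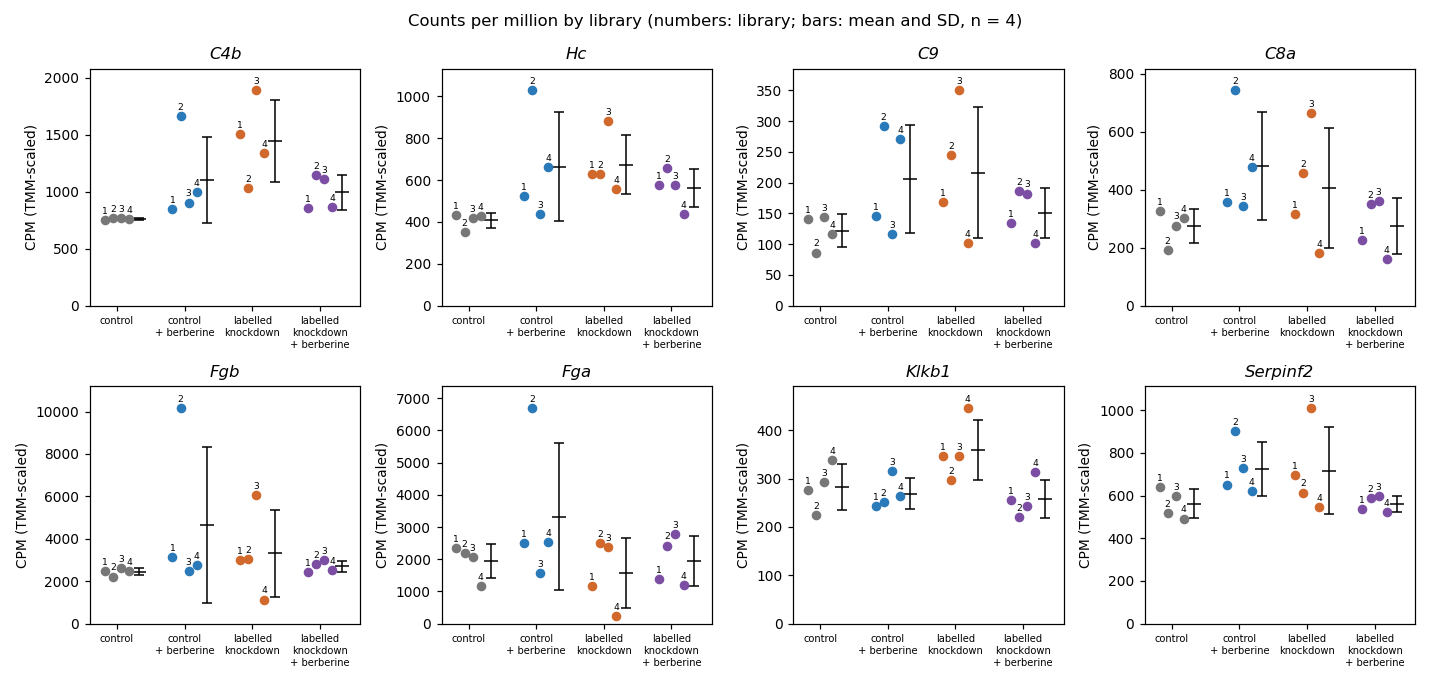
CPM after TMM scaling for 8 members in each library, with library numbers beside the points and the mean and SD of each group (n = 4) as bars. C4b and Hc of the controls lie below all knockdown-labelled libraries and all berberine controls, and either berberine control library 2 or knockdown-labelled library 3 holds the highest value in every panel but that of Klkb1.

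Of the 6 initiation members, Masp1 alone separated the label groups. Masp1 encodes a protease of the lectin pathway and held 74.7, 85.3, 84.2 and 78.9 CPM in the controls, 87.9, 93.0, 104 and 98.8 in the knockdown-labelled, 78.6, 87.3, 67.8 and 105 in the berberine controls and 81.7, 80.9, 93.3 and 78.1 in the berberine knockdown-labelled libraries. The smallest knockdown-labelled value was above the largest control by a few CPM, and the log2 fold change was 0.25 (SE 0.13) for the label and -0.20 (SE 0.13) for berberine in the labelled mice. Mbl2, mannose-binding lectin C and the most abundant member of the role at 197 FPKM, held 279.9, 265, 267 and 279.6 CPM in the controls, 268, 246, 238 and 235 in the berberine controls, 244, 219.8, 313 and 96.7 in the knockdown-labelled and 179, 179.5, 277 and 243 in the berberine knockdown-labelled libraries. Its controls were tight (SD of log2 CPM 0.04) while the knockdown-labelled libraries held both its highest and its lowest value, and its label value was -0.32 (SE 0.25). Mbl1, Masp2, C1ra and C1s1 were between -0.26 and 0.42 in every pairwise comparison, and Masp2 had the narrowest range of all members at 1.31-fold. C1ra shares 26.3% of its 150-base windows with C1rb and C1s1 2.46% with C1s2, so their counts are less certain, and Masp2 overlaps Tardbp on the other strand, whose mean count of 8660 is like its own 8667.

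Of the 3 regulators, Serping1 (C1 inhibitor, which blocks C1r, C1s and kallikrein) was the most abundant at 275 FPKM. It held 757, 689.6, 741 and 618 CPM in the controls, 638, 989.7, 679.6 and 802 in the berberine controls, 745, 888, 959 and 304 in the knockdown-labelled and 508, 688, 810.3 and 589.7 in the berberine knockdown-labelled libraries, with fitted values between -0.26 and 0.15. Cfi, the protease that degrades C3b and C4b, and C4bp, its cofactor, were above 1-fold for the label (0.20 and 0.15) and for berberine in the controls (0.27 and 0.23), with overlapping groups. All 3 were lowest in knockdown-labelled library 4.

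Among the coagulation members, fibrinogen was the most variable. Fga, Fgb and Fgg encode the 3 chains of fibrinogen and lie side by side on chromosome 3, between 83007724 and 83049863 (mm10), and F13b encodes the carrier subunit of the clot-stabilising factor XIII. The promoters of the 3 chains are shown because their levels differed most between libraries. That of Hc is shown as an example of a member that separated groups, as C4b, C8a, Masp1, Proz and Serpinf2 also did in some comparison. The sequences are RefSeq's on GRCm38.p6, from 250 bases before to 50 after the start, each 5′ to 3′ on the strand of its gene, with matches to 3 motifs in capitals: TTGCNNAA for C/EBP, TTCNNNGAA for STAT3 and GTTAAT, a part of the HNF1 site, each searched on both strands.
Fga (chr3:83025903-83026202, plus strand): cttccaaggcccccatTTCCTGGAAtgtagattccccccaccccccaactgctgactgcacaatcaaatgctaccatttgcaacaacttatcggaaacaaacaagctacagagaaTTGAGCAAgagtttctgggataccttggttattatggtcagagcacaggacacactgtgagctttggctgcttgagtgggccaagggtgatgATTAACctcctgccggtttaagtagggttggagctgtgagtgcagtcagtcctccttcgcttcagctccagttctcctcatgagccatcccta
Fgb (chr3:83049814-83050113, minus strand): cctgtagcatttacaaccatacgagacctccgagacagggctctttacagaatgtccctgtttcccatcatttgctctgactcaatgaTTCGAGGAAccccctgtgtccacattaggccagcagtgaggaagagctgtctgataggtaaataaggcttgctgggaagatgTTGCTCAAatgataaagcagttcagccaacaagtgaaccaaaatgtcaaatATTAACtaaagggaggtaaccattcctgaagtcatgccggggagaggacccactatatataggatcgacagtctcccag
Fgg (chr3:83007474-83007773, plus strand): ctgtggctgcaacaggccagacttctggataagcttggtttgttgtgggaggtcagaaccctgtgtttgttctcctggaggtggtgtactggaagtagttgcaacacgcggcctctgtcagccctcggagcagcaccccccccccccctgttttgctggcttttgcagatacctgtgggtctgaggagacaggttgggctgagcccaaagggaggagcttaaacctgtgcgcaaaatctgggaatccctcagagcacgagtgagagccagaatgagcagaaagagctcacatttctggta
Hc (chr2:35061363-35061662, minus strand): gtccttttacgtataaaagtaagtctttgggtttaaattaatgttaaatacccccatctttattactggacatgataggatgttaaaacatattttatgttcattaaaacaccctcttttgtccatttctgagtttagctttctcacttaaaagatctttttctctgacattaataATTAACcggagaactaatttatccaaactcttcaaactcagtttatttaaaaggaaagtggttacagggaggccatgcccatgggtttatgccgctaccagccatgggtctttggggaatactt
The Fga and Fgb windows each hold 1 match to each motif, the Hc window 1 match to the HNF1 letters only, and the Fgg window none, and no matches overlap in these windows. Among members not shown, the C8a window holds 1 match to the STAT3 and 1 to the HNF1 letters. That of C9 holds 1 match to the C/EBP letters. Of the 42 members, 33 had a promoter in the RefSeq table, 35 promoters in all. The C/EBP letters were in 12 of these 35 (34.3%) and in 10.8% of all 32851 promoters of that length, the STAT3 letters in 8 (22.9%) and 8.3%, and the HNF1 letters in 11 (31.4%) and 7.1%. A match describes the letters and is not a site shown to be used.

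Fgb held 2483, 2220.2, 2616 and 2479 CPM in the controls, 3130.2, 10164, 2499 and 2779 in the berberine controls, 3010.2, 3059.8, 6079 and 1139 in the knockdown-labelled and 2417, 2811, 3012 and 2543 in the berberine knockdown-labelled libraries. Berberine control library 2 stood alone above the other 15, and knockdown-labelled library 4 was the lowest of all. The fitted value for berberine in the controls was 0.92 (SE 0.46) with an unadjusted p of 0.0635 in the quasi-likelihood test of edgeR, and 0.21 without library 2. Fgg, the most abundant chain at 998 FPKM, held 2225, 1849.8, 2249 and 1651 CPM in the controls, 2862, 6917, 1809.6 and 2397 in the berberine controls, 1609, 2544, 3279 and 411 in the knockdown-labelled and 1683, 2199.8, 2206 and 1549.7 in the berberine knockdown-labelled libraries. Between its extreme libraries Fgg differed 16.8-fold, and Fga, from 232 CPM in knockdown-labelled library 4 to 6696 CPM in berberine control library 2, differed 28.9-fold. The groups of all 3 chains overlapped, with SE of 0.46 to 0.58 on the pairwise log2 fold changes. F13b did not follow the chains: at 65.6 CPM it was unremarkable in berberine control library 2, and it was lowest in berberine knockdown-labelled library 4.

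The vitamin K-dependent zymogens and the cofactor F5 varied less than the fibrinogen chains. F2, prothrombin, held 1479, 1445, 1433 and 1237 CPM in the controls, 1370.0, 1599, 1399 and 1319 in the berberine controls, 1149, 1566, 1360.0 and 437 in the knockdown-labelled and 1025, 1271, 1487 and 1127 in the berberine knockdown-labelled libraries. Knockdown-labelled library 4 was far below the other 15, and the fitted log2 fold changes of F2 lay between -0.31 and 0.12. F9, the protease missing in haemophilia B, held 129.5, 122, 146 and 120.0 CPM in the controls, 116, 149, 118 and 162 in the berberine controls, 157, 159.7, 146 and 129.7 in the knockdown-labelled and 119, 125, 135 and 125 in the berberine knockdown-labelled libraries. F9 overlapped between all groups, with 0.20 (SE 0.13) for the label and -0.23 (SE 0.13) for berberine in the labelled mice. F5, F7 and F10 lay between -0.31 and 0.24 in the pairwise comparisons.

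Of the 5 contact members, which start the intrinsic pathway and release bradykinin, Klkb1 and F11 went against most members in knockdown-labelled library 4. Their log2 CPM there was 0.44 and 0.64 above the mean of the rest of the group. Klkb1, plasma prekallikrein, held 276, 224, 294 and 338 CPM in the controls, 243, 251, 315 and 265 in the berberine controls, 347, 297, 346 and 446 in the knockdown-labelled and 255, 221, 243 and 313 in the berberine knockdown-labelled libraries. Its highest value of the study was in that library, and the groups overlapped. Berberine in the labelled mice gave -0.48 (SE 0.16) with an unadjusted p of 0.0105 and an adjusted p of 0.402 (quasi-likelihood test of edgeR, Benjamini-Hochberg), and -0.36 without library 4. The label gave 0.34 (SE 0.16). Gm45753, listed with a count of 0 in every library, covers 41.5% of its windows on the same strand. Kng1, kininogen and the most abundant contact member at 556 FPKM, held 1655, 1688, 1825 and 2356 CPM in the controls, 2101, 3190.2, 1796 and 1852 in the berberine controls, 2221, 1741, 2826 and 1518 in the knockdown-labelled and 1704, 1640.3, 2296 and 1987 in the berberine knockdown-labelled libraries. F11 had the lowest level of the 5 and held 36.6, 34.8, 60.5 and 52.3 CPM in the controls, 70.1, 52.1, 51.9 and 73.0 in the berberine controls, 29.9, 58.7, 46.8 and 67.8 in the knockdown-labelled and 42.7, 63.7, 66.7 and 67.2 in the berberine knockdown-labelled libraries, with 0.42 (SE 0.25) for berberine in the controls. F12, factor XII, held 536, 520.3, 532 and 429 CPM in the controls, 487, 542, 546 and 468 in the berberine controls, 454, 547, 513 and 355 in the knockdown-labelled and 372, 420.5, 470.3 and 424 in the berberine knockdown-labelled libraries. All groups of Kng1, F11 and F12 overlapped, and F12 had -0.28 (SE 0.14) for the label under berberine.

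Of the 5 anticoagulants, Proz separated the label groups and Pros1 followed berberine control library 2. Proz, protein Z, the cofactor for an inhibitor of factor Xa, held 289, 282, 306 and 353 CPM in the controls, 405, 361, 460.1 and 384 in the knockdown-labelled, 319, 413, 259 and 379 in the berberine controls and 333, 342, 352 and 387 in the berberine knockdown-labelled libraries. All 4 knockdown-labelled values were above the 4 controls, with 0.39 (SE 0.15), an unadjusted p of 0.0177 and an adjusted p of 0.29 (quasi-likelihood test of edgeR, Benjamini-Hochberg). Pros1, protein S, the cofactor of activated protein C, held 36.5, 36.4, 46.0 and 40.3 CPM in the controls, 43.4, 87.9, 50.6 and 48.5 in the berberine controls, 43.7, 44.6, 54.6 and 38.0 in the knockdown-labelled and 36.8, 44.2, 43.2 and 43.6 in the berberine knockdown-labelled libraries. Berberine in the controls gave 0.53 (SE 0.20), which was 0.27 without library 2, and the label under berberine gave -0.46 (SE 0.20), which was -0.18 without it. Proc, protein C and the most abundant anticoagulant at 231 FPKM, held 576, 553, 625 and 709 CPM in the controls, 643, 661, 745 and 522 in the berberine controls, 707, 619, 682 and 792 in the knockdown-labelled and 602, 521, 611 and 740.2 in the berberine knockdown-labelled libraries, and its groups overlapped. Serpinc1, antithrombin, and Serpind1, heparin cofactor II, lay between -0.18 and 0.06 in the pairwise comparisons.

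Serpinf2, alpha-2-antiplasmin, which blocks plasmin, was the only member whose groups separated between the labels under berberine. It held 651, 899.9, 728 and 620.3 CPM in the berberine controls and 536, 588, 596 and 523 in the berberine knockdown-labelled libraries, against 638, 518, 597 and 492 in the controls and 694, 614, 1009.5 and 547 in the knockdown-labelled libraries. The fitted value there was -0.37 (SE 0.18) with an unadjusted p of 0.0616 in the quasi-likelihood test of edgeR, and -0.25 without berberine control library 2, and the interaction was -0.72 (SE 0.26). Vtn, vitronectin, which stabilises the inhibitor of plasminogen activation and was the most abundant member, held 2241, 1990.4, 2434 and 2524 CPM in the controls, 2549, 4385, 2860.2 and 2284 in the berberine controls, 3128, 2760.0, 4186 and 1614 in the knockdown-labelled and 2169, 2076, 2647 and 2296 in the berberine knockdown-labelled libraries. Its interaction was -0.74 (SE 0.36). Plg, plasminogen, held 1942, 1872, 2097 and 1764 CPM in the controls, 2092, 2794, 2099 and 1884 in the berberine controls, 1913, 2201, 2214 and 1335 in the knockdown-labelled and 1447, 1775, 2003 and 1724 in the berberine knockdown-labelled libraries. Its label value under berberine was -0.35 (SE 0.18), and the groups of Vtn and Plg overlapped throughout. Cpb2, the carboxypeptidase that slows fibrinolysis, ranged 5.6-fold, from 66.8 CPM in knockdown-labelled library 4 to 374 CPM in berberine control library 2.

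Ratios of chains and paralogs within a library do not depend on the scaling between libraries, and 6 of them were compared in the 4 pairwise comparisons by a two-sided exact permutation test of the log2 ratio of FPKM, with Benjamini-Hochberg adjustment over the 24 comparisons. None was called. Mbl1 to Mbl2 averaged 0.412 in the controls (SD 0.056, n = 4) and 0.710 in the knockdown-labelled libraries (SD 0.127, n = 4), with no overlap and an exact permutation p of 0.0286, the smallest that 4 against 4 can give, and 0.274 after adjustment. By library this ratio was 0.394, 0.343, 0.438 and 0.473 in the controls and 0.643, 0.582, 0.740 and 0.874 in the knockdown-labelled libraries. Kng1 to Kng2 averaged 7.11 in the controls (SD 0.413) and 8.02 in the berberine controls (SD 0.254), again without overlap (exact permutation p 0.0286, 0.274 after adjustment), and was lower under the label with berberine at 7.25 (exact permutation p 0.0571). Fgb to Fga averaged 1.08 in the controls and in the berberine controls, 2.22 in the knockdown-labelled libraries, with 0.856 to 1.67 in those with berberine. This ratio was 2.03, 0.966, 2.02 and 3.88 in knockdown-labelled libraries 1 to 4 (exact permutation p 0.0857 against the controls), so the chains did not vary in step in library 4. For berberine in the labelled mice the smallest exact permutation p was 0.143, shared by the fibrinogen ratios and C8a to C8b. C8g to C8b averaged 4.81 in the controls and 2.79 in the berberine controls (exact permutation p 0.0571).

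**Figure D4:**
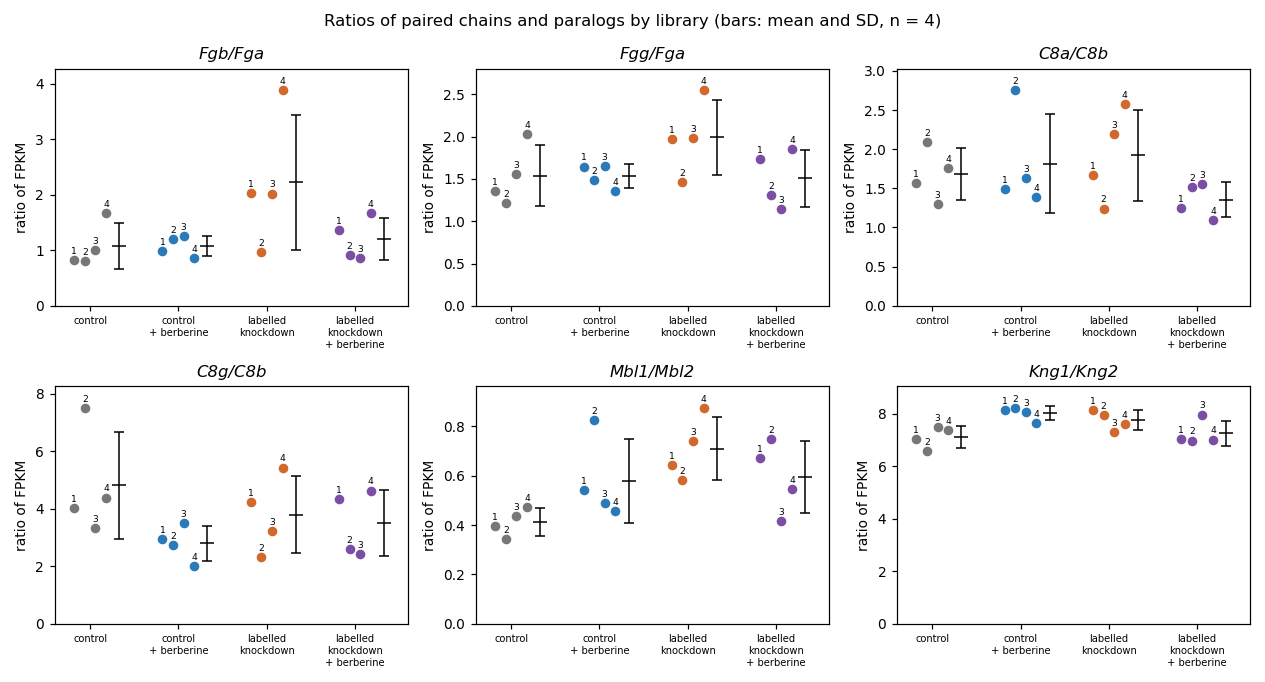
Ratios of FPKM for 6 pairs of chains or paralogs in each library, with library numbers beside the points and the mean and SD of each group (n = 4) as bars. Mbl1 to Mbl2 reaches 0.473 at most in the controls and is at least 0.582 in the knockdown-labelled libraries, and the highest Fgb to Fga ratio is 3.88 in knockdown-labelled library 4.

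Acute phase genes and markers of other cells were read in the same libraries and groups. All 11 inducible acute phase genes had fitted folds above 1 for the label (median 1.73) and for berberine in the controls (median 1.63), and all 11 were negative in the interaction (median -3.18). An unadjusted p under 0.05 was reached by 10, 6 and 11 of them, where 14.8%, 3.68% and 6.56% of all genes reached it. All 11 were below 1 for berberine in the labelled mice (median -1.55) and for the label under berberine (median -1.45). There 6 and 3 reached it, where 9.48% and 4.57% of all genes did. The mean log2 CPM of the 11, minus its mean over all libraries, was -1.25 to -0.68 in the controls. In knockdown-labelled libraries 1 to 4 it was 0.65, -0.29, 3.47 and -0.93. In berberine control libraries 1 to 4 it was -0.65, 3.31, -0.20 and -0.07. The groups did not overlap for 2 of the 11 for the label and 5 for berberine in the controls, all higher. Of all genes, 2.36% and 1.48% were higher without overlap. All 9 tested macrophage markers of 10 were higher with the label (median 1.12, 8 with an unadjusted p under 0.05, where 14.8% of all genes had one). Their summed levels were 35.0 to 84.1 FPKM in the controls, 36.6 to 88.8 FPKM in the berberine controls, 70.03 to 202.6 FPKM in the knockdown-labelled and 46.0 to 122 FPKM in the berberine knockdown-labelled libraries. Of 8 neutrophil markers only 2 were tested, 7 were at 0 in some library, and their summed level was 326 FPKM in knockdown-labelled library 3, 21.0 FPKM in berberine control library 2 and at most 6.97 FPKM in the other 14. Endothelial, stellate and platelet markers had medians of 0.08, 0.07 and 1.70 for the label, the last from 1 tested gene. The part of these cells and of the acute phase in the members' differences was not tested. Complement and coagulation scores, the mean log2 CPM of the members minus its mean over all libraries, were 0.49 and 0.55 in berberine control library 2, 0.57 and 0.33 in knockdown-labelled library 3, and -0.63 and -0.63 in library 4, where the hepatocyte score was -0.58. In that library the acute phase score was -0.93, and the macrophage, endothelial and stellate scores were 0.07, 0.53 and 0.73. The label's medians were 0.08 and -0.06 without library 3 and 0.44 and 0.23 without library 4, with 11 and 9 members, then 18 and 19 members, above 1. In the latter fit 8 complement and 3 coagulation members had an unadjusted p under 0.05, where 10.2% of all genes did. With libraries 3 and 4 and berberine control library 2 all left out they were 0.26 and 0.12, with 18 of 19 and 18 of 23 members above 1.

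**Figure D5:**
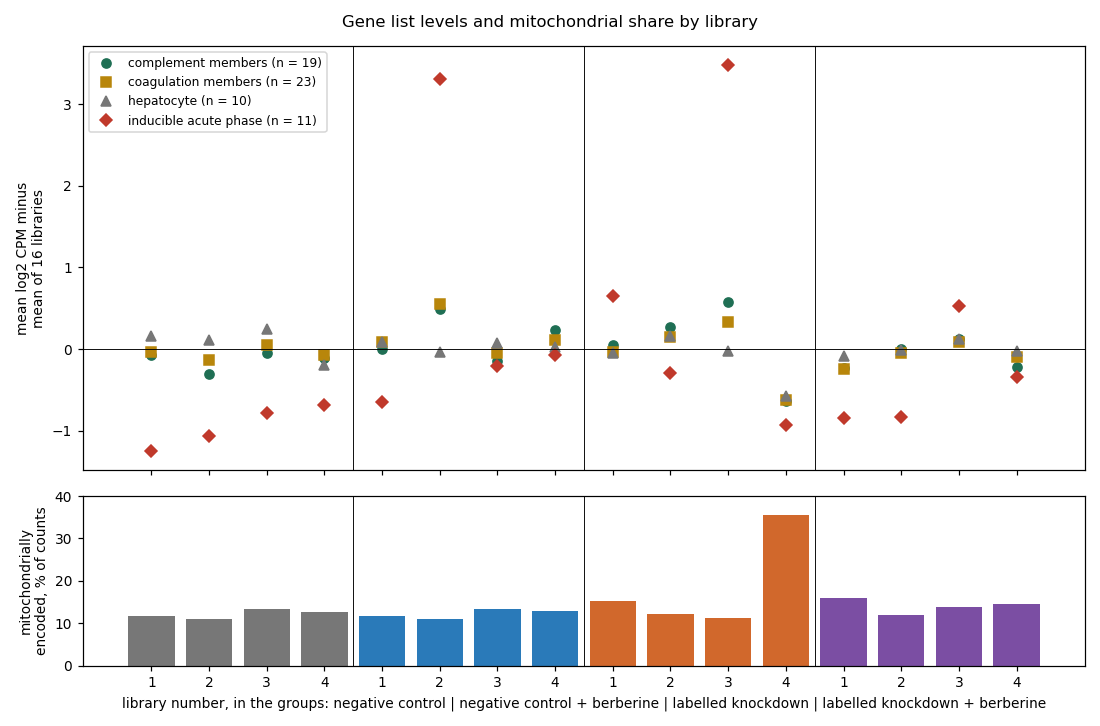
Upper panel, mean log2 CPM of each gene list minus its mean over the 16 libraries; lower panel, percent of counts from mitochondrially encoded genes. The acute phase score is 3.31 in berberine control library 2 and 3.47 in knockdown-labelled library 3, and the mitochondrial share is 35.4% in knockdown-labelled library 4, where both member scores are -0.63.

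Genes of the 2 systems outside the 42 were read from lists of 29 complement and 30 coagulation genes, of which 18 and 16 were tested. Unlike the members, the complement list was not limited to factors that the liver secretes. It includes genes that macrophages or other leukocytes make, such as C1qc and Cfp. The part of these cells in its differences was not tested. For the label 12 of the 18 complement genes had folds above 1 (median 0.65, 7 with an unadjusted p under 0.05, all higher, where 14.8% of all genes had one). They were split 10 above and 8 below for berberine in the controls (median 0.15), 7 above and 11 below for berberine in the labelled mice (median -0.21), and 7 above and 11 below in the interaction (median -0.31). Under berberine the label gave 10 above and 8 below (median 0.03), where 18 of the 19 complement members were below 1. Cd59a, which blocks the terminal pore on host cells, averaged 7.34 FPKM in the controls (SD 1.33) and 29.8 FPKM in the knockdown-labelled libraries (SD 25.8), with a log2 fold change of 2.22 (SE 0.54, n = 4 per group) and an adjusted p of 0.267 (quasi-likelihood test of edgeR, Benjamini-Hochberg). Properdin, Cfp, the stabiliser of the alternative convertase that leukocytes make, averaged 6.54 FPKM (SD 2.48) and 19.2 FPKM (SD 11.1), a log2 fold change of 1.66 (SE 0.42). Of the 16 coagulation genes, 10 were above 1 for the label (median 0.13), 12 for berberine in the controls (median 0.25), 7 for berberine in the labelled mice (median -0.11), 7 for the label under berberine (median -0.16) and 4 in the interaction (median -0.28). Fgl1, fibrinogen-like 1, a liver-secreted relative of the fibrinogen chains, averaged 41.2, 151, 179 and 73.8 FPKM in the controls, berberine controls, knockdown-labelled and berberine knockdown-labelled libraries, with SD of 7.86, 160, 168 and 26.0 FPKM. Its interaction was -3.29 (SE 0.97), with an adjusted p of 0.756 (quasi-likelihood test of edgeR, Benjamini-Hochberg). Habp2, a plasma protease that activates factor VII, averaged 22.1 FPKM in the controls and 30.3 FPKM in the knockdown-labelled libraries (0.54, SE 0.20).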

How the data were processed

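Poly(A) RNA of 16 livers was read with a strand-marking kit, per the labels' protocols. Raw counts per gene and FPKM values were deposited by the authors in 1 table, and cutadapt 1.9, HISAT2 2.0.4, StringTie 1.3.4d, edgeR, DESeq2 and mm10 are named in the submitters' processing notes. The counting tool and its use of strand are not given in the sources used here, so a gene and an antisense neighbour may share counts, as for Masp2, C8g, Serpind1 and Masp1. A value of 0.0001 stands in the deposited FPKM where the count is 0.

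Counts were tested with edgeR 4.0.16 (R 4.3.3) by the quasi-likelihood test, with TMM scaling and 1 mean for each of the 4 groups over all 16 libraries, and Benjamini-Hochberg adjustment over the 10846 genes that 4 or more libraries held at 1 FPKM or above. An adjusted p under 0.05 counts as called. CPM values were TMM-scaled, with a prior count of 2 on the log2 scale. The fit was tested on simulated data in which no library was set apart from its group, so that test does not cover libraries that are. Ratios were tested with scipy 1.17.1. Alternatives were DESeq2 1.42.0, limma 3.58.1 on log2(FPKM + 1) and log2(FPKM + 0.1), other filters and scalings, a replicate block, and fits without single libraries. Leaving out knockdown-labelled libraries 3 and 4 with berberine control library 2 was chosen after seeing the data.

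The members and lists were chosen with earlier results of these data known. Values per library are given, for each comparison, for the 4 complement and 4 coagulation members with the smallest p, and for the most abundant member of each role. Of the genes outside the 42, the rule takes the 2 with the smallest p in each list and comparison.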

Additional observations from a re-analysis of the deposited data

Results flagged for a closer look

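In 108 comparisons of 1 library with its group of 4, over 25 members and the 2 member scores, 6 values lay far enough from the other 3 to pass Dixon's 95% limit, and chance would give about 5.4. C3, the central complement component, was at 4208.73 CPM in berberine knockdown-labelled library 3, and at 2529.8 to 2782.65 CPM in the others of its group. F11, the contact protease, was at 42.6763 CPM in berberine knockdown-labelled library 1, with the others between 63.7 and 67.2 CPM. F12, which starts the contact pathway, was at 428.919 CPM in control library 4, below 520 to 536 CPM in the other controls. Fgb, the beta chain of fibrinogen, was at 10164 CPM in berberine control library 2, above 2499 to 3130 CPM. Pros1, protein S, was at 87.8804 CPM in that library, above 43.4 to 50.6 CPM. Pros1 was also at 36.8133 CPM in berberine knockdown-labelled library 1, below 43.2 to 44.2 CPM.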

How the results depend on the processing

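Many members turned direction under at least 1 of the 27 alternatives (26 for the interaction, where a fit of only the groups compared has no meaning): 24 of 42 for the label, 13 for berberine in the controls, 29 for berberine in the labelled mice, 16 for the label under berberine and 19 for the interaction. For the label, C3 ran from -0.17 to 0.49, Fgb from -0.03 to 0.74, and Plg had its direction in 16 of 27. The 40 gene and comparison pairs picked for the smallest p did not turn, which that choice makes likely, and 1 of them, C4b for the label, was called by some alternatives. Against 0 genes called, DESeq2 called 105 genes for the label (1 of them a complement member), 3 for berberine in the controls, 55 for berberine in the labelled mice, 5 for the label under berberine and 10 for the interaction. Leaving out single libraries gave 0 to 609 genes for the label (609 without knockdown-labelled library 2) with 0 to 1 complement members, 0 to 41 for berberine in the labelled mice (41 without the same library), and 0 to 1 in each other comparison. Only the groups compared gave 1 gene for berberine in the controls. Without both libraries high in acute phase genes, 1 gene was called for berberine in the controls and 1 for the label under berberine. Leaving out 3 libraries gave 1 gene in each pairwise comparison and 2 in the interaction. The complement median of the interaction, -0.46 beside -0.01 for all genes, was -0.10 with limma at either pseudocount (-0.105 and -0.104). The median of all genes moved to 0.14 and 0.18 in these limma fits. Without both high libraries the complement median was -0.13, beside -0.009 for all genes. The cause was not tested. Same-numbered libraries deviated together weakly at most over all genes (24 correlations from -0.17 to 0.21, 4 over 0.1). For number 4, the controls had 0.16 with the knockdown-labelled and 0.20 with the berberine knockdown-labelled group, which had 0.10 with each other. Berberine control library 4 had -0.07, -0.06 and -0.17 with these. Such correlations cannot show whether the numbers pair mice. With the replicate block 0 genes were called in every comparison and the complement median for the label was 0.20. No member's count was below 1592.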

Other observations

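Among 17 hepatocyte transcription factors and genes of interleukin-6 signalling, 7 had folds above 1 and 10 below 1 for the label (median -0.01), where 51.9% of all genes were above 1, and none was called. Socs3, the feedback inhibitor of that signalling, averaged 3.14 FPKM (SD 1.09, n = 4) in the controls and 6.62 FPKM (SD 3.58, n = 4) in the knockdown-labelled libraries. Its log2 fold change was 1.19 (SE 0.42), with an adjusted p of 0.290 (quasi-likelihood test of edgeR, Benjamini-Hochberg). Cebpa, a factor that maintains hepatocyte identity, averaged 137 FPKM (SD 26.1) in the controls and 94.6 FPKM (SD 32.0) in the knockdown-labelled libraries (-0.44, SE 0.18). Stat3, which carries the interleukin-6 signal, averaged 4.50 FPKM (SD 0.483) in the controls and 6.61 FPKM (SD 1.86) in the berberine controls (0.58, SE 0.26), and its interaction was -0.87 (SE 0.37). Hnf4a, which drives many liver genes, had -0.27 (SE 0.18) for berberine in the controls and -0.34 (SE 0.18) in the labelled mice. Il6st, the shared receptor chain, had -0.19 (SE 0.18) for the label under berberine.

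Cfd, the adipsin protease of the alternative pathway, averaged 139.6 FPKM (SD 72.4) in the controls and 40.7 FPKM (SD 55.1) in the berberine controls, with a log2 fold change of -1.78 (SE 0.99). C1qc, a chain of C1q that macrophages make, had 0.60 (SE 0.42) for berberine in the controls, and Clu, clusterin, had -0.51 (SE 0.38) for the label under berberine. Serpinb6a, an intracellular protease inhibitor, had -0.72 (SE 0.24) for berberine in the labelled mice.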
